A study of Mus musculus with 12 samples.

Results

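Antibody-secreting cells (ASCs) are the plasmablasts and plasma cells that arise from activated B cells and secrete immunoglobulin. Here those of the thymus were compared with those of the bone marrow. Cells were chosen from the gene expression libraries by 3 conditions: at least 500 UMIs (unique molecular identifiers, 1 per captured transcript) outside genes whose symbols start with Igh, Igk or Igl, under 10% of UMIs from mitochondrially encoded genes, and a leading light-chain V gene that held at least 50% of the light-chain V gene UMIs. A cell that makes 1 antibody has 1 leading light-chain V gene. The conditions kept 3560 of the 13096 barcodes in the filtered lists of the 2 tissues, out of 39949 barcodes in the 6 gene expression libraries of the study. Kept cells numbered 1314 of 5864 in female bone marrow, 1765 of 4894 in male bone marrow, 128 of 752 in female thymus and 353 of 1586 in male thymus. Between 50% and 55% on the light-chain condition lay 100, 131, 14 and 39 kept cells in the same order, and between 45% and 50% lay 110, 155, 8 and 21 barcodes that were left out.

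All groups came from C57BL/6 mice of 3 months that carried the Prdm1-eYFP reporter, in which a yellow fluorescent protein follows Prdm1, a transcription factor of ASCs. The sort took B220+/- CD138HI IgD- CD90.2- Prdm1-eYFP+ cells, so the reporter and the surface protein Sdc1 (CD138) helped to define the cells, and CD90.2 was used against T cells. Each library was 1 pool of 3 mice of 1 sex, run in its own well with 10x Genomics 5' chemistry. A tissue therefore has n = 2 libraries, 1 female and 1 male, and sex and mouse pool cannot be told apart. Whether the mice that gave thymus cells also gave bone marrow cells is not stated in the labels.

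Interferons are secreted proteins that act through surface receptors, the kinases Jak1 and Tyk2 and transcription factors such as Stat2 and Irf9, and switch on antiviral genes in the responding cell. Many of these genes carry the interferon-stimulated response element in their promoters. In adult mice the bone marrow is the main home of long-lived plasma cells, which rest on stromal cells and on survival factors such as APRIL, and the thymus also holds a small population of B cells and plasma cells.

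The thymus libraries were shallower than the bone marrow libraries. The kept cells of female and male bone marrow summed to 5731010 and 9358046 UMIs outside immunoglobulin genes, and those of female and male thymus to 278816 and 1232467. The median per cell was 2664.5, 3643, 1800.5 and 2167 UMIs in that order. The share of these UMIs from ribosomal protein genes was 13.2% and 11.3% in bone marrow, 5.25% in female thymus and 9.01% in male thymus, so female thymus stood apart from the other libraries. Each library shared from 7 to 22 of its kept barcodes with another gene expression library of the study. The estimated share of free RNA, judged from light-chain V UMIs other than those of the leading gene, was 8.13% and 9.27% in bone marrow and 5.01% and 8.17% in thymus. Levels below are UMIs per 1e6 UMIs outside immunoglobulin genes, scaled by the TMM factors of the test (CPM), and pairs of values are given in the order female, male.

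ASC marker genes were abundant in all 4 libraries. Prdm1 stood at 1018 and 1118 CPM in bone marrow and at 938 and 953 CPM in thymus. Xbp1, a factor of the secretory programme, stood at 3492 and 3774 CPM in bone marrow and at 3179 and 3299.6 CPM in thymus. Jchain, the chain that joins IgM and IgA into polymers, took 102025 and 103504 CPM in bone marrow and 42391 and 64431 CPM in thymus. None of these 3 differed by the test (adjusted p = 0.63 to 0.90). Of 20 ASC identity genes, 1 passed the test, and it rose: Ly6c2, described with its family below. The B cell genes Pax5, Fcer2a, Cr2, Spib and Bcl6 had 0 UMIs in both thymus libraries, where 3 counts correspond to 9.70 CPM in female and 2.26 CPM in male thymus. In bone marrow each of those genes stood below 2 CPM, under the 3-count level of either thymus library. They are 5 of 20 B cell identity genes. The 20 summed to 3380 and 3441 CPM in bone marrow and to 2762 and 2666 CPM in thymus.

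Thymic ASCs carried higher levels of 35 genes of interferon lists than bone marrow ASCs in both mouse pools. They carried lower levels of the metallothioneins Mt1 and Mt2 and of Prg2, among others. Of 10258 genes tested, 95 passed (0.926%), of which 68 were higher in thymus (0.663%) and 27 lower (0.263%). The test was edgeR's quasi-likelihood test with mouse pool and tissue as terms and Benjamini-Hochberg adjustment at 0.05. The SE (standard error) printed with a log2 difference is its size divided by the square root of the test's F value. It is not a fitted standard error, and it can lie below the counting error of genes with few UMIs. A call required the same direction in both pools, and all 95 genes with an adjusted p under 0.05 had it. Among all genes tested, 65.1% had the same direction in both pools, and the log2 ratios of the pools had a Pearson r of 0.42. Of the 68 higher genes, 35 were on 5 lists of interferon genes, and of the 27 lower genes 0 were on them. These lists held 82 of the 10258 genes tested. They were chosen with earlier results of these data known, so the counts are a description and not a separate test. On no list of any kind were 27 of the higher and 14 of the lower genes. A gene entered the test with at least 2.87 UMIs per 1e6 in 2 libraries. Of the higher genes 12 reached that level in thymus alone, which fixed their direction: Usp18, Rtp4, Oas1a, Oas3, Oasl1, Oasl2, Ifi204, Ifi208, Gbp10, Ly6c1, Trbc2 and Tcf7. Of the lower genes 8 reached it in bone marrow alone: S100a8, S100a9, Camp, Ngp, Lcn2, Wfdc21, Il4i1 and Hbb-bs. The other 56 higher and 19 lower genes reached it in both tissues, among them 26 of the 35 interferon genes. The direction of a gene that reached the level in 1 tissue alone is a description. Where library totals were not scaled by TMM the median of all genes moved by 0.22 on the log2 scale, and 351 genes passed, 299 higher and 52 lower, including all 95. The number of genes called rested on the libraries in the fit. The fits with a library left out, here and below, leave 1 library in a tissue. They had no term for mouse pool and no condition on both pools, so they differ from the test in more than the library. DESeq2 with its independent filtering called 115 genes, 5 higher and 110 lower, left 9546 genes without an adjusted p and called 2 of the 35 interferon genes; without that filtering, an alternative chosen after seeing the data, it called 34 genes, 25 higher and 9 lower, and 15 of the 35. All 35 were higher in value by DESeq2, on the same counts from which they were chosen. In simulated data with the same library sizes, the test recovered 94.5% of 200 genes changed by 2 on the log2 scale. It made 9 false calls among 10090 genes, and smaller changes were not simulated. Both figures describe the simulated counts alone. How far they hold for genes with few UMIs, or for pools and libraries that differ as these do, was not tested. The share of false calls among the 95 genes is therefore not known.

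**Figure D1:**
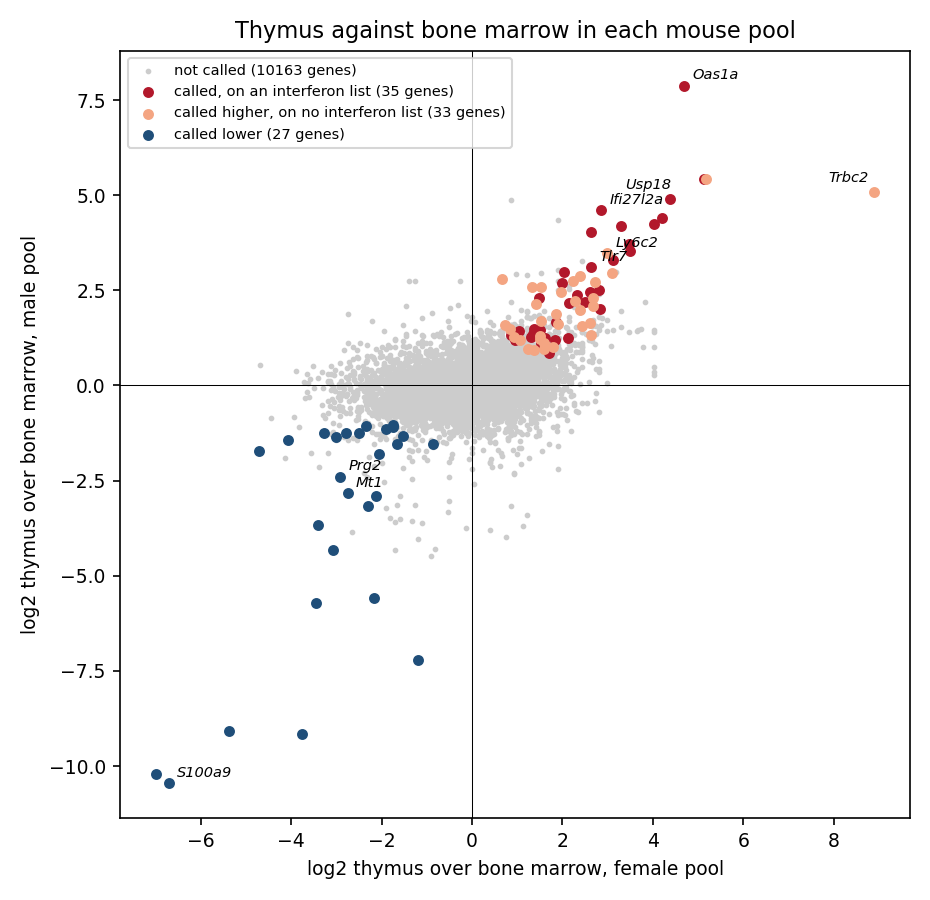
Each point is 1 of the genes tested, with its log2 ratio of thymus over bone marrow in the female pool (horizontal axis) and in the male pool (vertical axis). The 95 called genes lie in the upper right or lower left, as a call requires. Red points are the 35 called genes on interferon lists, orange the other higher genes, blue the lower genes and grey the genes not called.

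Promoters of genes that rose are printed here to show interferon response elements, which are short, shared sequences. The element core searched was GAAANNGAAA on either strand, overlapping matches counted, in the 300 bases from 250 before to 50 after each RefSeq gene start (GRCm38.p6). RefSeq promoters were found for 46 of the 68 higher genes, and 13 of them (28.3%) held the core. Among the 20 lower genes with a promoter, 0 held it. On the interferon lists the core was in 11 of 24 promoters (45.8%) of genes that rose and in 20 of 39 (51.3%) of genes that did not pass. All 9 Gbp and immunity-related GTPase genes with a promoter in the table did not pass, and 8 of them held it, Gbp2, Gbp7 and Irgm1 included, as did Bst2, Shisa5, Ifih1 and Ifi211. The share over the 8099 tested genes with a promoter was 3.90%, and over all 32851 promoters of the table it was 3.44%. The 7 promoters below were picked by hand, so how many of them hold a match does not stand for all genes that rose. They are the 250 bases before the start, 5' to 3' on the gene's strand, with matches in capitals.
Isg15: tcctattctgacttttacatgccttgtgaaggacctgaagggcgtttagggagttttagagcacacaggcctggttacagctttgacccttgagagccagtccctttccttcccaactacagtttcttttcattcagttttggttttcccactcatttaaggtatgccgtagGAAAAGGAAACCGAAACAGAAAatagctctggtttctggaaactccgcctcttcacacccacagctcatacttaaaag
Oas1a: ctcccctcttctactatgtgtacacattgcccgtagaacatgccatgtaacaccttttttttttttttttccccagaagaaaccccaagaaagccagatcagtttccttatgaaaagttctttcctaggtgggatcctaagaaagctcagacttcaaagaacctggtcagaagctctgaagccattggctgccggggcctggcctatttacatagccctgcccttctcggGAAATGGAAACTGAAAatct
Oas3: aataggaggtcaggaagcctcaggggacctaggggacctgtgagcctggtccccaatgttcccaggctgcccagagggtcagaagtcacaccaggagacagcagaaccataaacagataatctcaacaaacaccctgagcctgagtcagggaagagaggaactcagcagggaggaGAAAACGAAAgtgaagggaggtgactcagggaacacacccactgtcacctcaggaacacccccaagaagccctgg
Ifi206: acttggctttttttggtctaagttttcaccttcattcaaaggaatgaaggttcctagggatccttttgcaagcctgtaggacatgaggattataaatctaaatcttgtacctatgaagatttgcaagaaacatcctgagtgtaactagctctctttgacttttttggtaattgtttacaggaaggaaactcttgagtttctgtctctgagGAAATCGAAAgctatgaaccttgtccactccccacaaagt
Stat2: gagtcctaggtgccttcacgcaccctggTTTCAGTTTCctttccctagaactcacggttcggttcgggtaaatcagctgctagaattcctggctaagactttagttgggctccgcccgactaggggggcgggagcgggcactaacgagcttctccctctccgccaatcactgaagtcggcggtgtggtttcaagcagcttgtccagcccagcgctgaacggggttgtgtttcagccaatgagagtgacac
Irf7: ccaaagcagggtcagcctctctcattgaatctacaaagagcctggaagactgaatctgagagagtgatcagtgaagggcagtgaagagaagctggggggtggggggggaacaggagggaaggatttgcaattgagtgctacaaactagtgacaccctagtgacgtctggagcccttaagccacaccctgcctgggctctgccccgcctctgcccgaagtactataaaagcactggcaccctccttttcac
Ly6c2: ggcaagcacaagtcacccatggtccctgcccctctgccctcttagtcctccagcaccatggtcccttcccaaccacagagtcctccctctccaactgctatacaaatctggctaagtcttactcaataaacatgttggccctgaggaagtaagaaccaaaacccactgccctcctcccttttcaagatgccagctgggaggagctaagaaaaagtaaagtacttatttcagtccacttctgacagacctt

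The Isg15 promoter (chr4:156200819-156201068, minus strand) held 3 overlapping matches, which began 78, 72 and 66 bases before the start. The Oas1a promoter (chr5:120907526-120907775, minus strand) held 2 overlapping matches, at 20 and 14 bases before the start. Single matches stood 75 bases before the start of Oas3 (chr5:120777660-120777909, minus strand) and 40 bases before that of Ifi206 (chr1:173491319-173491568, minus strand). In Stat2 (chr10:128270248-128270497, plus strand) the match was on the opposite strand, 222 bases before the start. Irf7 (chr7:141266425-141266674, minus strand) and Ly6c2 (chr15:75111972-75112221, minus strand, the first of 2 starts) rose without these letters in the window. A match describes the sequence and was not tested as a binding site.

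Interferon signalling genes divided into those that rose and those that did not pass. Of 14 tested, 5 rose and 0 fell, with a median log2 difference of 0.17, against -0.0028 over all genes. Usp18, a protease that removes Isg15 from proteins and dampens the receptor, stood at 1.99 and 1.46 CPM in bone marrow and at 42.0 and 44.5 CPM in thymus. Both thymus libraries were above both bone marrow libraries (log2 4.71 ± 0.41 SE, adjusted p = 1.5e-05). The gene entered the test through thymus alone, so the filter had fixed that order before TMM scaling. Irf7, a factor that amplifies interferon production, rose from 23.2 and 17.3 CPM in bone marrow to 93.8 and 136 CPM in thymus (log2 2.60 ± 0.27 SE, adjusted p = 0.00011). Irf9, the partner of Stat2, rose from 31.0 and 31.1 CPM to 93.8 and 73.9 CPM (log2 1.38 ± 0.24 SE, adjusted p = 0.0090). Stat2 rose by log2 1.10 ± 0.24 SE (adjusted p = 0.047), and its adjusted p was 0.21 and 0.12 when the female or the male marrow library was left out and 0.16 without male thymus.

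The receptors and kinases of the pathway did not pass the test. Ifnar1, a chain of the type I interferon receptor, stood at 54.6 and 58.2 CPM in bone marrow and at 84.1 and 67.1 CPM in thymus (adjusted p = 0.53). Ifnar2 stood at 130 and 134 CPM in bone marrow and at 100 and 129 CPM in thymus. Jak1 and Tyk2 had log2 differences of -0.05 and -0.03. Socs1, an inhibitor of Jak kinases, stood at 11.3 CPM in both bone marrow libraries and at 6.47 and 4.52 CPM in thymus, and Irf1 at 99.5 and 106 CPM against 100 and 70.1 CPM. The 10 interferon ligand genes on the list, among them Ifna2, Ifnb1 and Ifng, had 0 UMIs in both thymus libraries, where 3 counts over both libraries correspond to 1.83 CPM.

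Of 35 antiviral effector genes tested, 20 rose and 0 fell, and the median log2 difference was 1.29. Of the 20 that rose, 5 entered the test through thymus alone. The sum over the list, which its most abundant genes decide, differed less: it was 5778 and 5158 CPM in bone marrow and 6536 and 8029.9 CPM in thymus, a log2 ratio of 0.18 in the female and 0.64 in the male pool (counting intervals 0.11 to 0.24 and 0.61 to 0.67). Female spleen, at 7865 CPM, was above female thymus only with TMM scaling, whose factors were 0.784 for female spleen and 1.11 for female thymus. By library totals female spleen was the lower. The list held 131659 of 21364127 UMIs in female spleen and 2021 of 278816 in female thymus. In 27 of the 35 both thymus libraries were above both bone marrow libraries, an order that 24.5% of all genes tested showed. Ifi27l2a, a small interferon-induced mitochondrial protein, was the most abundant of those that rose. It stood at 226 and 81.7 CPM in bone marrow and at 1643 and 1983 CPM in thymus (log2 3.74 ± 0.46 SE, adjusted p = 0.00043). A single cell held 32.1% of its UMIs in female thymus and 10.8% in male thymus. Lgals3bp, a secreted galectin-binding protein, rose from 55.04 and 45.8 CPM to 336 and 252 CPM (log2 2.53 ± 0.25 SE, adjusted p = 6e-05). Isg15, a ubiquitin-like protein that is attached to other proteins, rose from 52.9 and 62.1 CPM to 146 and 303 CPM (log2 1.94 ± 0.27 SE, adjusted p = 0.0016), with the higher of the thymus values in the male pool. A single cell held 25.4% of its UMIs in male thymus, and 1 cell held 23.6% in male bone marrow. Trim30a rose from 45.9 and 29.5 CPM to 259 and 134 CPM (log2 2.33 ± 0.24 SE), and its neighbour in sequence Trim30d from 23.6 and 18.7 CPM to 168 and 75.4 CPM (log2 2.37 ± 0.26 SE). Reads of Trim30a and Trim30d, near-identical copies, may be split between them.

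Several antiviral genes were close to silent in bone marrow ASCs, and Rtp4, Oas1a and Oasl2 entered the test through thymus alone. Rtp4, a chaperone of receptors, had 6 UMIs over both bone marrow libraries and 29 over both thymus libraries, or 0.60 and 0.34 CPM against 22.6 and 16.6 CPM (log2 5.36 ± 0.57 SE, adjusted p = 0.00013). A single cell held 4 of its 7 UMIs in female thymus. Oas1a, an enzyme that makes the 2'-5' oligoadenylate messenger of the antiviral RNase L system, was counted 3 times in bone marrow ASCs and 22 times in thymic ASCs. The pooled levels differed 62.6-fold (95% counting interval 18.8 to 327), and the adjusted p of 0.00072 was 0.11 without male bone marrow. Oasl2, of the same family, rose from 2.78 and 0.90 CPM to 16.2 and 15.1 CPM (adjusted p = 0.0041), but its adjusted p was 0.060 and 0.21 when the female or the male marrow library was left out. Reads of Oas1a and Oasl2 may be shared with other members of their family. Not every effector rose: Isg20 stood at 270 and 212 CPM in bone marrow and 213 and 219 CPM in thymus, Bst2 at 258 and 205 CPM against 217 and 377 CPM, and Shisa5 at 840 and 818 CPM against 621 and 905 CPM. Rsad2, Ifit2, Ifit3, Ifit3b, Ifit1bl1 and Oas1g had 0 UMIs in thymus, and each stood below 2 CPM in bone marrow.

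**Figure D2:**
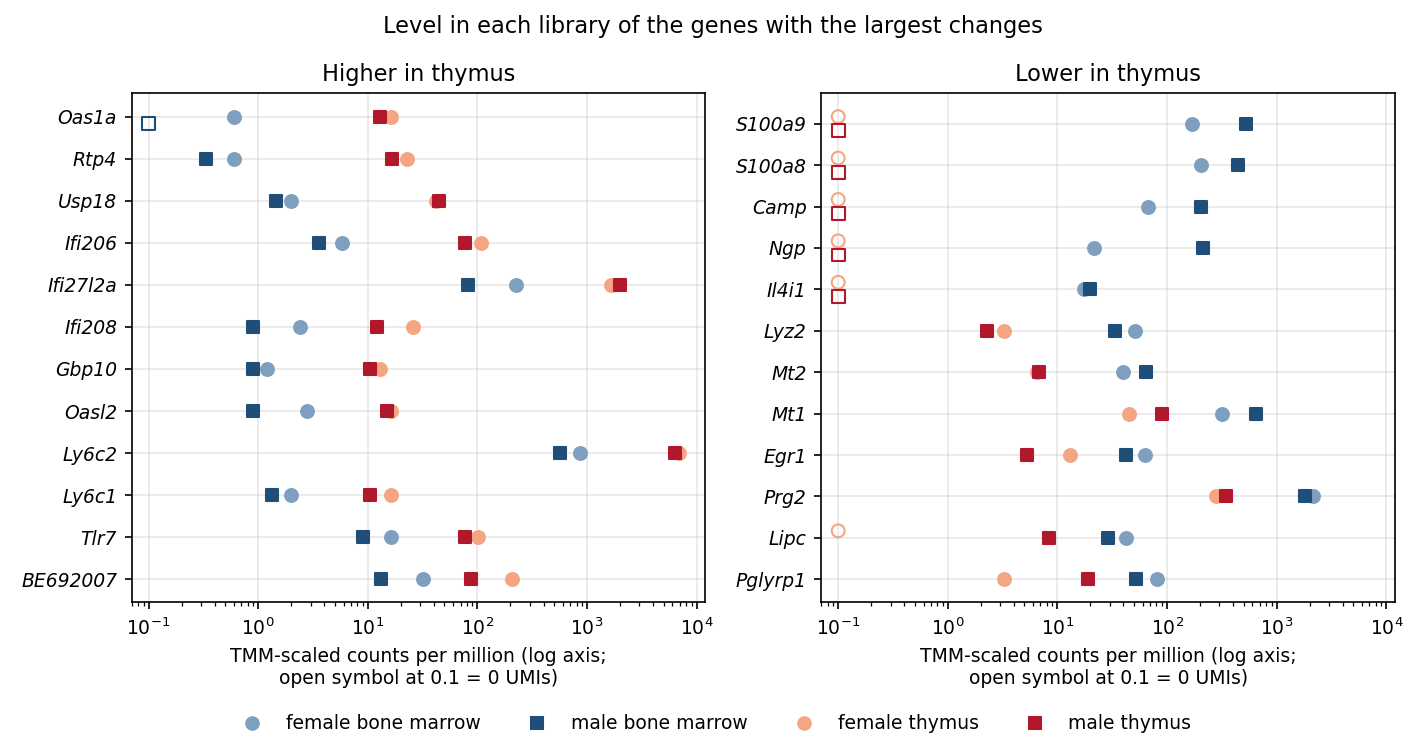
Level of 12 genes in each direction, 1 symbol per library, on a log axis of TMM-scaled CPM. They had the largest changes among called genes with at least 10 CPM in both libraries of the higher tissue. Open symbols at 0.1 stand for 0 UMIs. Among all genes tested, 24.5% had both thymus libraries above both bone marrow libraries, and 26.9% had both below. In the left panel both thymus symbols lie to the right of both bone marrow symbols for every gene, as Ly6c2 does at 6904 and 6293 CPM against 868 and 565 CPM; in the right panel they lie to the left, as Mt1 does at 45.3 and 89.7 CPM against 315 and 641 CPM.

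The Ifi200 family, a cluster of nuclear and cytosolic DNA-binding proteins induced by interferon, rose with 6 of 10 tested members, 0 fell, and the median log2 difference was 1.44; Ifi204 and Ifi208 entered the test through thymus alone. The family summed to 529 and 411 CPM in bone marrow and to 1109 and 854 CPM in thymus. Ifi206 went from 5.76 and 3.58 CPM in bone marrow to 107 and 76.9 CPM in thymus, the largest rise of the family (log2 4.32 ± 0.28 SE, adjusted p = 1.4e-06). Ifi214 went from 8.35 and 7.39 CPM to 35.6 and 33.2 CPM (log2 2.14 ± 0.34 SE, adjusted p = 0.0049). Ifi208 went from 2.38 and 0.90 CPM to 25.9 and 12.1 CPM, with an adjusted p of 0.0016 that was 0.056 and 0.17 when the female or the male marrow library was left out. Ifi209 went from 57.8 and 40.8 CPM to 149 and 114 CPM (adjusted p = 0.0049, and 0.14 without male bone marrow). Aim2, the sensor of cytosolic DNA, and Ifi211 did not pass, with log2 differences of 0.10 and 0.06. Family members share sequence, so their reads can be split between them.

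Guanylate-binding proteins and immunity-related GTPases, which attack the membranes around intracellular pathogens, rose with 3 of 15 tested members and 0 fell (median log2 0.58). Gbp6 rose from 7.55 and 5.60 CPM to 51.7 and 31.7 CPM (log2 2.60 ± 0.34 SE, adjusted p = 0.00088). Gbp10, which entered the test through thymus alone, rose from 1.19 and 0.90 CPM to 12.9 and 10.6 CPM (adjusted p = 0.0051), with an adjusted p of 0.52 and 0.34 when the female or the male marrow library was left out. Gvin1 rose from 20.3 and 17.7 CPM to 48.5 and 42.2 CPM (adjusted p = 0.047), and was not called without either bone marrow library (adjusted p = 0.053 and 0.18). Gbp7 and Gbp3 had log2 differences of -0.14 and -0.02 and Gbp4 of 0.24. Gbp genes form a family of similar sequences, and their reads can be split.

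Among 8 tested sensors of nucleic acids, Tlr7 rose and 0 fell. Tlr7, the endosomal receptor of single-stranded RNA, stood at 16.3 and 8.96 CPM in bone marrow and at 100 and 77.6 CPM in thymus (log2 2.91 ± 0.26 SE, adjusted p = 1.9e-05). Both thymus libraries were above both bone marrow libraries, an order that 24.5% of all genes tested showed. The cytosolic RNA sensors Ddx58, at 119 and 113 CPM against 146 and 141 CPM, and Ifih1, at 3.78 and 3.14 CPM against 9.70 and 10.6 CPM, did not pass (adjusted p = 0.60 and 0.17). Tlr9 and Tlr3 had 0 UMIs in thymus and at most 0.20 CPM in bone marrow.

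The interferon difference was present in cells across the thymus libraries. With each cell thinned to 500 UMIs, the lower and upper quartiles of the cells were 2 and 6 UMIs from 77 interferon-induced genes in both thymus libraries, with a median of 4. In both bone marrow libraries the quartiles were 1 and 4, with a median of 2. The mean was 4.07 and 4.43 UMIs in female and male thymus and 2.62 and 2.58 in female and male bone marrow. These counts per cell carry no TMM scaling. Over the IgM cells alone, 33 of the 34 interferon genes called above that could be tested were called again, and after subtraction of the estimated free RNA 34 of 34 were. In IgA cells 8 of 19 were called and in IgG cells 0 of 21, with all of those tested higher in thymus in value. With bone marrow sampled to the number of thymus cells 15 of 32 were called, with libraries thinned to the smallest total 14 of 23, and without male bone marrow 18 of 34. In cells without a marker UMI of another cell type 28 of 34 were called. In cells with at least 10% ribosomal protein UMIs 15 of 30 were called and 30 of 30 were higher in thymus. The genes were chosen from these same counts, and 9 of the 35 entered the test through thymus alone. Their direction in these alternatives is therefore a description, not a separate test.

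**Figure D3:**
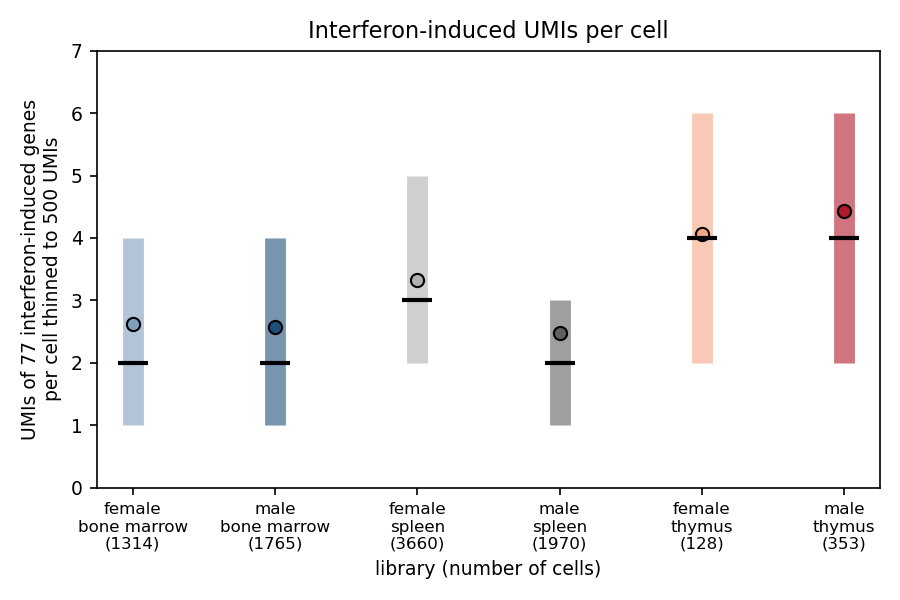
UMIs of 77 interferon-induced genes per cell, each cell thinned to 500 UMIs, for each library with its number of cells; boxes span the lower to the upper quartile, lines are medians and circles are means. Both thymus libraries have a median of 4 and both bone marrow libraries a median of 2; the spleen libraries are shown beside them.

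The surface protein Ly6c2 was among the most abundant transcripts that differed. It stood at 868 and 565 CPM in bone marrow and at 6904 and 6293 CPM in thymus (log2 3.24 ± 0.47 SE, adjusted p = 0.0019), 9.42-fold higher. A single cell held 21.5% of its UMIs in female thymus and 7.64% in male thymus. Ly6c2 and Ly6c1, whose coding sequences are very similar, were the members called of 7 tested Ly6 genes. Ly6c1, which entered the test through thymus alone, stood at 1.99 and 1.34 CPM against 16.2 and 10.6 CPM (adjusted p = 0.011, and 0.50 and 0.36 when the female or the male marrow library was left out). Reads can be split between the pair, and the low Ly6c1 values may include reads of Ly6c2. Ly6e, also interferon-induced, went the other way in value, at 3285 and 3041 CPM against 1368 and 2307 CPM, and did not pass (adjusted p = 0.38).

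Of the 68 higher genes, 27 were on no list. BE692007, a gene without an assigned role, was among the 12 largest rises of called genes with at least 10 CPM in both thymus libraries. It stood at 31.8 and 13.2 CPM in bone marrow and at 207 and 86.7 CPM in thymus (log2 2.71 ± 0.23 SE, adjusted p = 1.4e-05). The following were chosen after their values were seen. Sdc3, a heparan sulphate proteoglycan of the same family as CD138, stood at 10.1 and 12.4 CPM against 51.7 and 49.0 CPM (log2 2.10 ± 0.30 SE, adjusted p = 0.0016). Hist1h2af, a histone gene, was called on 1 library: it stood at 2.98 and 4.48 CPM in bone marrow, 3.23 CPM in female thymus and 30.9 CPM in male thymus, and its log2 difference was -0.28 without male thymus.

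The metallothioneins, small proteins that bind zinc and copper, were lower in thymic ASCs. Of 6 genes of metallothioneins and zinc handling tested, Mt1 and Mt2 fell and 0 rose. Mt1 stood at 315 and 641 CPM in bone marrow and at 45.3 and 89.7 CPM in thymus (log2 -2.82 ± 0.31 SE, adjusted p = 0.00016). Mt2 stood at 39.7 and 64.6 CPM against 6.47 and 6.78 CPM (log2 -3.13 ± 0.38 SE, adjusted p = 0.00043). In both genes every bone marrow library was above every thymus library, an order that 26.9% of all genes tested showed. Mtf1, the zinc-sensing factor that drives both, stood at 23.2 and 22.96 CPM in bone marrow and at 35.6 and 21.9 CPM in thymus (adjusted p = 0.87).

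Of 17 early response genes tested, 2 fell and 0 rose. Egr1 stood at 62.8 and 41.9 CPM in bone marrow and at 12.9 and 5.28 CPM in thymus (log2 -2.74 ± 0.38 SE, adjusted p = 0.0013). Fos fell from 530 and 100.4 CPM to 103 and 47.5 CPM (adjusted p = 0.022), but female thymus was above male bone marrow, and without female bone marrow the log2 difference was -0.56 (adjusted p = 0.84). Early response genes can be induced by cell handling, and its part in the result was not tested.

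Of the 27 lower genes, 7 were on marker lists of neutrophils, macrophages or eosinophils. The eosinophil marker among them, Prg2, had UMIs in 1050 of 1314 female and 1407 of 1765 male bone marrow cells. All 11 genes of the neutrophil list had 0 UMIs in thymus, so the 5 that were tested passed the filter on low counts through bone marrow alone, which fixed their direction. These 5 were called by edgeR, and 0 of the 5 were called by DESeq2, with or without independent filtering. A few cells held most of these UMIs: of the kept bone marrow cells 1 female and 3 male cells had at least 10 neutrophil marker UMIs. The 3 highest cells held 82.3% of 3168 UMIs in female and 92.9% of 13210 UMIs in male bone marrow, while 33.6% and 38.5% of cells had at least 1. S100a8 and S100a9, which encode the abundant cytosolic proteins of neutrophils, stood at 204 and 168 CPM in female bone marrow, at 445 and 526 CPM in male bone marrow and at 0 UMIs in both thymus libraries. Against a floor of 3 counts over both thymus libraries, S100a8 was at least 195-fold lower, S100a9 at least 216-fold, Camp at least 84.2-fold and Ngp at least 78.9-fold (adjusted p = 1.4e-06, 1.4e-06, 4.5e-06 and 5.3e-06). The 11 genes summed to 629 and 1479.7 CPM in bone marrow, and 11 of 11 had 0 UMIs in the kept thymus cells. Without the cells with at least 10 such UMIs, an alternative chosen after seeing the data, 120 genes were called, 93 of the 95 among them; Lcn2 was not called and Wfdc21 was not tested. S100a8 then stood at 34.1 and 21.0 CPM in bone marrow, at least 14.05-fold above thymus (adjusted p = 0.00014 by edgeR), S100a9 was at least 19.3-fold, Ngp at least 12.48-fold and Camp at least 6.47-fold higher. In the free RNA profile of barcodes outside the filtered lists these 11 genes took 1335 and 1625 CPM in bone marrow and 275 and 763 CPM in thymus. The estimated free RNA covered 612 of the 4995 UMIs of S100a8 and 900 of the 5539 of S100a9 in bone marrow; without the cells named above 358 and 493 UMIs were left, fewer than that estimate. In the kept thymus cells the same estimate expected 3.88 and 82.4 UMIs of the 11 genes, and 0 were counted, so the estimate was too high for these genes in male thymus. The part of neutrophils or their RNA in the result was not tested.

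Lyz2, a lysozyme of macrophages and granulocytes, stood at 51.1 and 33.6 CPM in bone marrow and at 3.23 and 2.26 CPM in thymus (log2 -3.90 ± 0.48 SE, adjusted p = 0.00047). In bone marrow 1 cell held 85.2% of its female and 1 cell 48.3% of its male UMIs, and without the cells with at least 10 neutrophil marker UMIs it stood at 50.3 and 7.43 CPM (adjusted p = 0.024). It was the member that fell of 4 tested macrophage genes. Prg2, the major basic protein of eosinophils, stood far higher, at 2133 and 1823 CPM against 281 and 346 CPM (log2 -2.65 ± 0.38 SE, adjusted p = 0.0017). In bone marrow 1480 of its 27011 UMIs were covered by the free RNA estimate. Its UMIs were spread over cells: with each cell thinned to 500 UMIs, 41.1% and 38.9% of bone marrow cells and 8.59% and 11.1% of thymus cells had at least 1. The other 5 genes of the platelet, basophil and eosinophil list had 0 UMIs in thymus, and 4 of them, Epx included, also had 0 in bone marrow, so Prg2 alone carries that list. Hbb-bs, a globin gene of red cells, was counted 135 times in bone marrow ASCs and 0 times in thymic ASCs, at least 5.27-fold lower (adjusted p = 0.043, and 0.11 without male thymus), and entered the test through bone marrow alone. Of its bone marrow UMIs 147 were expected from free RNA, more than were counted.

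Markers of further cell types were low in both tissues. The 11 macrophage genes summed to 91.0 and 77.7 CPM in bone marrow and to 32.3 and 36.9 CPM in thymus, with C1qc, Adgre1, Csf1r, Marco and Cd5l at 0 UMIs in thymus. The 8 genes of thymic epithelium summed to 31.2 and 31.9 CPM in bone marrow and to 38.8 and 28.6 CPM in thymus, and the defining genes Foxn1, Psmb11, Krt5 and Fezf2 had 0 UMIs in thymus. Aire, which lets epithelial cells display tissue proteins, stood at 12.5 and 9.52 CPM in bone marrow and at 6.47 and 3.02 CPM in thymus and did not pass (adjusted p = 0.27). The part of these cell types in the results above was not tested.

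Other genes fell that are on none of those marker lists. Il4i1, a secreted amino acid oxidase, was counted 264 times in bone marrow ASCs, at 17.5 and 19.7 CPM, and 0 times in thymic ASCs, at least 10.3-fold lower (adjusted p = 0.0040), and entered the test through bone marrow alone. A single cell held 73.9% of its female bone marrow UMIs. It was the gene called of 15 tested genes of amino acid supply, of which 0 rose. Lipc, hepatic lipase, stood at 42.1 and 28.8 CPM against 0 and 8.29 CPM (adjusted p = 0.036). Pglyrp1, a peptidoglycan recognition protein, stood at 81.5 and 51.9 CPM against 3.23 and 18.8 CPM (adjusted p = 0.023). Ltb, a membrane-bound cytokine of the lymphotoxin complex named after its values were seen, stood at 109 and 88.9 CPM against 9.70 and 36.9 CPM (adjusted p = 0.025).

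Of 5 tested T cell genes, Trbc2 and Tcf7 rose and 0 fell; both are near 0 in bone marrow and passed the filter on low counts through thymus. Trbc2, a constant gene of the receptor beta chain, had 2 UMIs over both bone marrow libraries and 26 over both thymus libraries, at 45.3 CPM in female and 9.05 CPM in male thymus. The pooled levels differed 111-fold (95% counting interval 27.8 to 965), with an adjusted p of 0.00020 that was 0.00084 without the female and 0.00014 without the male marrow library; it was not tested without female thymus. Tcf7, a T cell factor, was counted 3 times in bone marrow ASCs and 14 times in thymic ASCs, 39.8-fold higher (interval 11.1 to 216), with an adjusted p of 0.0014 that was 0.60 and 0.39 when the female or the male marrow library was left out. Cd3g, of the receptor complex, was higher in bone marrow in value, at 8.35 and 9.19 CPM against 0 and 1.51 CPM, and did not pass (adjusted p = 0.15). Trac, counted 21 times in bone marrow ASCs and 2 times in thymic ASCs, was not tested. The 16 genes of the list summed to 110 and 43.7 CPM in thymus and to 19.1 and 16.7 CPM in bone marrow. Thy1, which encodes the CD90 used against T cells in the sort, was at 0 in all 4 libraries, and Cd4 and Ptcra at 0 in both thymus libraries. At least 2 of these genes had UMIs in 5 of 128 and 9 of 353 thymus cells and in 5 of 1314 and 4 of 1765 bone marrow cells. The summed interferon-induced level in thymus cells with 0 T cell marker UMIs was 7751 CPM in the female and 9315 CPM in the male pool, against 6493 and 5779 CPM in such bone marrow cells.

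Genes of survival, homing and secretion gave 0 calls. Of 19 survival genes tested 0 were called. Tnfrsf17 (BCMA), the APRIL receptor of plasma cells, stood at 287 and 271 CPM in bone marrow and at 171 and 242 CPM in thymus (adjusted p = 0.52), and Tnfrsf13b (TACI) at 415 and 535 CPM against 346 and 422 CPM. Cd44 stood at 172 and 184 CPM against 272 and 207 CPM. Of 17 homing genes 0 were called. Itga4, an integrin chain that binds Vcam1, stood at 258 and 278 CPM against 378 and 345 CPM (adjusted p = 0.50). Selplg, the selectin ligand, stood at 224 and 253 CPM against 217 and 268 CPM, and Itgb2 at 160 and 192 CPM against 200.5 and 173 CPM. Cxcr4, the receptor that holds plasma cells in bone marrow, stood at 47.5 and 38.1 CPM against 42.0 and 36.2 CPM. At an unadjusted p under 0.05, where 6.04% of all genes tested were higher and 8.60% lower, 1 survival gene was higher and 3 were lower, and 4 homing genes were higher and 1 was lower. Of 39 genes of protein folding and secretion 0 were called, and at an unadjusted p under 0.05 3 were lower and 0 higher, a share near that of all genes. The most abundant folding genes, the chaperone Hsp90b1 at 8621 and 8638 CPM against 16441 and 11167 CPM, Txndc5 at 5359 and 6689 CPM against 5288 and 5799 CPM, and Pdia4 at 2521 and 2752 CPM against 3418 and 3069.6 CPM, were not called.

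**Figure D4:**
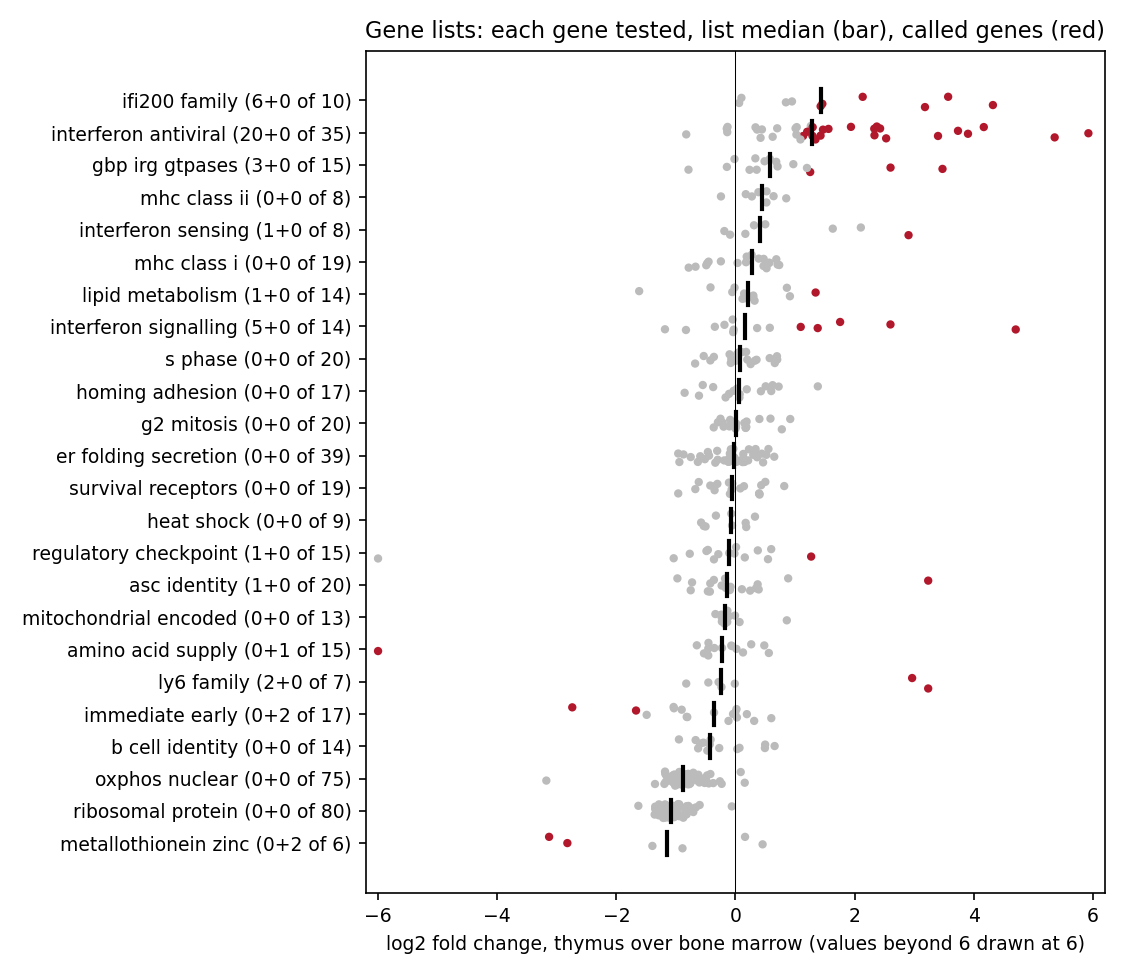
Log2 difference of thymus over bone marrow for each tested gene of the lists with at least 5 genes tested (red where called, grey otherwise) and the list median (bar). The marker lists of other cell types are not drawn, and values too large for the axis are drawn near its ends. The label gives the genes called higher plus lower of those tested. The medians of the interferon antiviral and Ifi200 lists are 1.29 and 1.44, and those of the ribosomal protein and nuclear oxidative phosphorylation lists are -1.09 and -0.88.

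Antigen presentation genes did not pass either. Of 19 genes of MHC class I presentation 0 were called. H2-K1 stood at 4878 and 4483 CPM against 6837 and 5496 CPM, H2-D1 at 3402 and 3375 CPM against 4269 and 3918 CPM, and B2m, the light chain they share, at 5451 and 4892 CPM against 2694 and 3325 CPM. Of 8 MHC class II genes 0 were called, with Cd74, the invariant chain, at 14593 and 15081 CPM against 12984 and 12088 CPM and H2-Ab1 at 842 and 738 CPM against 1559 and 822 CPM. Of 14 B cell identity genes 0 were called, among them Cd79a at 1196 and 1149 CPM against 650 and 831 CPM. Scd2, which makes unsaturated fatty acids, was the gene that rose of 14 of lipid metabolism, from 51.1 and 72.1 CPM to 175 and 146 CPM (adjusted p = 0.019, and 0.16 without female bone marrow). Lgals9, a galectin, was the gene that rose of 15 regulatory genes, from 35.8 and 25.5 CPM to 58.2 and 76.1 CPM (adjusted p = 0.034, and 0.25 and 0.13 without male bone marrow and without male thymus).

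Ribosomal protein and nuclear oxidative phosphorylation genes were lower in value as groups, with 0 called in the test used here. Of 80 ribosomal protein genes the median log2 difference was -1.09, 73 were lower at an unadjusted p under 0.05 against 8.60% of all genes tested, and 77 had both thymus libraries below both bone marrow libraries, an order that 26.9% of all genes tested showed. Rpl13 stood at 3313 and 2832 CPM in bone marrow and at 1067 and 1952 CPM in thymus. The summed level fell in value by 1.67 on the log2 scale in the female pool and by 0.50 in the male pool. Of 75 nuclear oxidative phosphorylation genes the median was -0.88 and 61 were lower at an unadjusted p under 0.05, such as Cox4i1 at 799 and 690 CPM against 236 and 457 CPM (adjusted p = 0.17). The number of ribosomal protein genes called lower was 65 by DESeq2 and 1 by DESeq2 without independent filtering, 79 without male thymus and 1 without female thymus, 70 without the 5% of cells with the most UMIs, 69 without shared barcodes and 56 in non-cycling cells. Among cells with at least 10% ribosomal protein UMIs the 2 medians were -0.41 and -0.28. Of 13 mitochondrially encoded genes 0 were called, and mt-Co1 stood at 9825 and 7825 CPM against 9362 and 6384 CPM.

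The shares of the antibody classes could not be told apart between tissues by the test, which 2 against 2 libraries cannot pass. IgM cells were 81.9% and 92.5% of female and male bone marrow cells and 64.1% and 79.9% of female and male thymus cells, with exact 95% binomial intervals of 79.7% to 83.9%, 91.1% to 93.7%, 55.1% to 72.3% and 75.3% to 83.9%. Both thymus libraries were below both bone marrow libraries, with means of 72.0% ± 11.2 (SD, n = 2) and 87.2% ± 7.48 (SD, n = 2). The IgA share was 8.52% and 3.63% in bone marrow and 19.5% and 8.78% in thymus. The IgG share was 9.59% and 3.91% in bone marrow and 16.4% and 11.3% in thymus. For each class the exact two-sided permutation test over libraries gave p = 0.333, the smallest that 2 against 2 libraries allow, and the adjusted value over the 3 classes is the same. Ighg2b led the IgG cells of female thymus with 17 of 21 cells, and in male thymus Ighg2c had 22 and Ighg2b 14 of 40 cells. Lambda light chains led in 4.49% and 2.15% of bone marrow cells and in 3.91% and 4.53% of thymus cells.

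**Figure D5:**
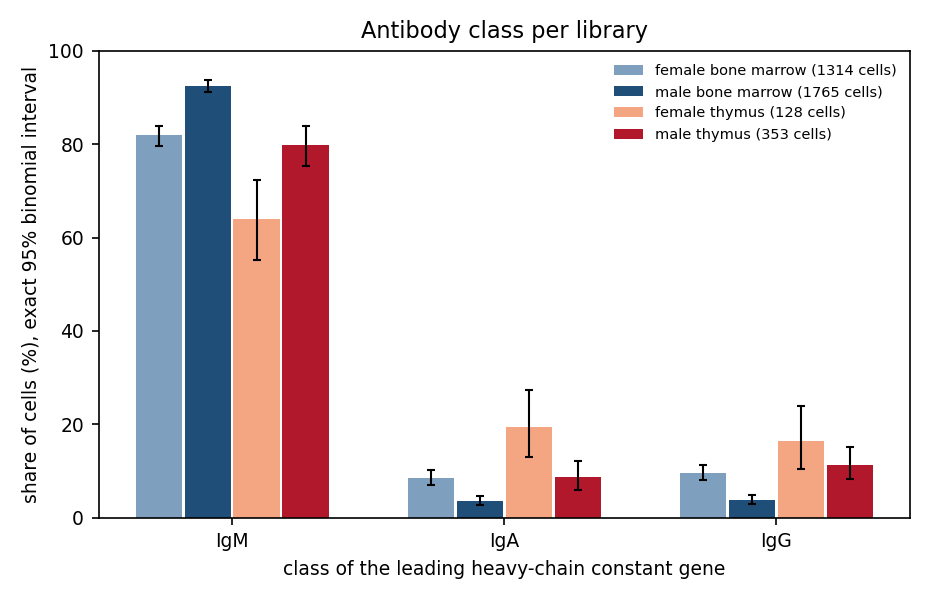
Share of cells whose leading heavy-chain constant gene was of class IgM, IgA or IgG, in percent, 1 bar per library with its exact 95% binomial interval, which covers counting error only. IgM is lower and IgG is higher in both thymus libraries than in both bone marrow libraries; IgA in male thymus, at 8.78%, is close to female bone marrow, at 8.52%.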

How the data were processed

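Gene expression libraries of 2 tissues were used, 4 in all, and the spleen libraries only as an alternative and beside levels. The deposited matrices hold UMI counts per gene and barcode, not normalized, written by Cell Ranger 6.0.2 (filtered) and Cell Ranger 4 (unfiltered), per the file headers; filtered barcodes had equal counts in both. The submitters' processing notes name mm10 and GRCm38. The deposited gene and barcode names, and the VDJ tables, hold other information; VDJ tables were not used here. Cells and gene lists were chosen with earlier results of these data known. Genes starting with Igh, Igk or Igl (395 of 32285) were left out of sums and tests. Counts were summed per library and tested with edgeR 4.0.16 (R 4.3.3) after filterByExpr and TMM, with mouse pool and tissue as terms; a call also needed 1 direction in both pools. The 1 residual degree of freedom is the disagreement of the 2 pools on the tissue difference, and the spread is mostly borrowed across genes. Libraries of a tissue differ in sex, so p-values do not measure the spread between replicates of 1 sex. Named genes were the 12 largest changes per direction among called genes with at least 10 CPM in both libraries of the higher tissue, and per list up to 4 called genes with the lowest adjusted p or, if 0 were called, up to 3 of the highest level; results for 2 genes that this rule names are not reported here. Doublets were not called; the light-chain condition bears on them, as does an alternative that drops the top 5% of cells by UMIs. Free RNA was estimated from barcodes outside the filtered list with 1 to 100 UMIs. Intervals cover counting error only. A DESeq2 1.42.0 fit and other alternatives are given at the end. Fits with a library left out had tissue as their only term and no condition on both pools. The script for the test was tested on simulated data.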

Additional observations from a re-analysis of the deposited data

Results flagged for a closer look

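The 2 mouse pools moved in opposite directions in 3 groups of genes whose summed level, thymus against bone marrow, had a counting interval that left out 0 in each pool; other lists had opposite signs with an interval that held 0. The summed level of 20 S-phase genes was lower in thymus in the female pool, with a log2 ratio of -0.439, and higher in the male pool, with 0.302. The summed level of 20 genes of G2 and mitosis had log2 ratios of -0.548 in the female and 0.318 in the male pool. Genes of protein folding and secretion had log2 ratios of 0.12 in the female and -0.0186 in the male pool. By library totals without TMM, chosen after seeing the data, the folding genes were at 0.457 and 0.155, so that scaling turns their direction in the male pool, while S-phase genes were at -0.102 and 0.476 and those of G2 and mitosis at -0.211 and 0.492. With TMM the 95% counting intervals of both pools left out 0 in each group, but the difference between pools was not tested, since no combination of sex and tissue was repeated. The cell cycle levels rest on few cells: 9 of 128 female and 18 of 353 male thymus cells had at least 3 cycle UMIs per 1000, against 64 of 1314 and 73 of 1765 in bone marrow. Rrm2, a subunit of the enzyme that makes DNA precursors, stood at 114 CPM in female bone marrow, 87.04 CPM in male bone marrow, 38.8 CPM in female thymus and 157 CPM in male thymus.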

How the results depend on the processing

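The number of genes called (95) depended on the processing, and the cause was not tested. It was 317 without a filter on low counts, 329 with at least 1000 UMIs per cell, 607 without the 5% of cells with the most UMIs, 626 in non-cycling cells, 771 without shared barcodes and 272 after subtraction of free RNA. It was 201 in IgM cells, 35 in IgA cells and 0 in IgG cells, where 161 genes had an unadjusted p under 0.05 by edgeR; DESeq2 was not run on those cells. It was 51 in cells without markers of other types and 43 in cells with at least 10% ribosomal protein UMIs. Leaving out a library gave 82 to 1030 genes, of which 56 to 85 were among the 95. Chosen after seeing the data, a mitochondrial share taken over UMIs outside immunoglobulin genes gave 316, sampling bone marrow to the thymus number of cells 30, DESeq2 without independent filtering 34 and totals without TMM 351. DESeq2 with its filtering gave 115, of which 5 were higher, left 9546 genes without an adjusted p and shared 9 calls with edgeR. RLE size factors gave 131 and included all 95.

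The median of the antiviral list (1.29) was above 0 in all 26 alternatives. It was 1.45 with libraries thinned to the smallest total, 1.48 with a leading light-chain share of 80%, 1.18 in IgM, 1.07 in IgA and 1.47 in IgG cells, 1.34 after subtraction of free RNA and 1.51 without TMM, and leaving out a library gave 1.16 to 1.34. The median of the ribosomal protein list lay between -1.56 and -0.41. Among 40 named genes that were called, 804 of 915 values kept direction and call, 110 lost the call and 1 reversed: Scd2, at -0.20 in IgA cells. The 915 leave out every alternative in which a gene was not tested or had no adjusted p, as with many genes in DESeq2 with its filtering. Rrm2, not called, lay between -1.41 and 0.64 with a library left out and was called, at -1.41, without male thymus. The fit without the replicate block of mouse pool called 68 genes, all among the 95; the labels give the female and male pools no pairing beyond sex. Isotype differences kept their direction under 3 alternatives each (exact permutation p = 0.333). At the depth of female thymus, 3 counts are 9.70 CPM, which limits what can be seen of low genes.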

Other observations

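The spleen libraries gave levels beside which those of thymus and bone marrow can be read. Ifi206 stood at 3.82 and 2.66 CPM in female and male spleen, close to bone marrow and below both thymus libraries, and Tlr7 at 20.2 and 16.5 CPM. Ly6c2 stood at 1836 and 563 CPM in female and male spleen, and Ifi27l2a at 843 and 166 CPM, so in both genes the female spleen library was the higher. Mt1 stood at 217 and 144 CPM, between the tissues, and Prg2 at 1301 and 817 CPM. S100a8 and S100a9 stood at 0.06 and 0.12 CPM in female spleen and had 0 UMIs in male spleen. The median number of interferon-induced UMIs per cell at 500 UMIs was 3 in female and 2 in male spleen.

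Heat shock genes gave 0 calls among 9 tested, with Hsp90ab1 at 1129.6 and 1143 CPM in bone marrow and 660 and 967 CPM in thymus. Of the genes of amino acid supply that did not pass, Slc3a2, a chain of amino acid transporters, stood at 1178 and 1871 CPM against 802 and 1455 CPM, and Phgdh, the first enzyme of serine synthesis, at 424 and 514 CPM against 246 and 356 CPM (adjusted p = 0.31). Irf4, a factor required for plasma cells, stood at 404 and 416 CPM against 792 and 725 CPM and missed the threshold (adjusted p = 0.20).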
